A study of Nicotiana tabacum with 9 samples.

Results

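Transcripts of 3 tobacco genes linked by their product names to the plant cell wall and to growth are described here across 3 light intensities: a beta-xylosidase/alpha-L-arabinofuranosidase 2 (Nitab4.5_0003089g0010), a beta-glucosidase BoGH3B (Nitab4.5_0000010g0130) and a tubulin beta-1 chain (Nitab4.5_0001951g0080). They were taken by identifier from a deposited table of 123 genes, and all 3 passed the filter on low counts. The samples were seedling leaves of H382, a variety of cigar tobacco (Nicotiana tabacum, an allotetraploid species). Plants received 50, 100 or 200 µmol m-2 s-1, and the groups are called light 50, light 100 and light 200. Each group had 3 biological replicates, so 9 RNA-sequencing libraries were compared.

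A plant cell wall is a network of cellulose tied together by xyloglucan, xylan and pectin, and it is remodelled while a leaf cell grows. Beta-xylosidases and alpha-L-arabinofuranosidases cut xylose and arabinose from the ends and side chains of xylan and arabinan. Beta-glucosidases remove glucose from the ends of sugar chains or from small glucosides, and in Bacteroides ovatus, the gut bacterium from which the name BoGH3B comes, the enzyme takes part in the breakdown of xyloglucan. Beta-tubulin pairs with alpha-tubulin to build microtubules, which in the cell cortex guide the complexes that make cellulose and in dividing cells form the spindle.

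The names rest on sequence matches listed in the authors' deposited table. The xylosidase (Nt07, plus strand, 28866305 to 28871027) has a coding length of 2418 bases, or 806 codons, and was matched to an enzyme of Medicago sativa. The glucosidase (Nt13, minus strand, 64303917 to 64314594) has 1947 coding bases, or 649 codons, within a span of 10678 bases. Its Swiss-Prot match is the bacterial BoGH3B (E = 4.22e-82), while its KEGG entry is a beta-glucosidase described as like BoGH3B. The tubulin (Nt11, plus strand, 55587441 to 55590264) has 1026 coding bases, or 342 codons. It was matched to the beta-1 chain of Lupinus albus (E = 8.26e-37), whereas its KEGG entry names a beta-2 chain, so which beta-tubulin isotype it encodes is not settled by the table. Whether the 342 codons are its whole coding sequence was not tested, and its FPKM values rest on that length. The table lists no cellular component for any of the 3 genes, and a wall location is therefore not part of its annotation. No source used here names the genome build of these coordinates.

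Library totals, worked out from the authors' counts, FPKM values and coding lengths, were 12395758 to 16603534 reads. They are the totals behind the FPKM values and need not equal the reads sequenced. The 3 genes had between 481 and 4462 reads in every library, so no value of theirs rests on few reads. The table is not a random part of the transcriptome, since 99.2% of its genes are marked by the authors as changed between light 50 and light 200, in these same samples. A call in that comparison, or in the trend over all 3 intensities, is therefore no independent evidence that light changed a gene. Levels are CPM, reads scaled to a fixed library size, on library sizes scaled by the authors' size factors. Tests are edgeR's quasi-likelihood test, two-sided, with Benjamini-Hochberg adjustment over all 123 genes at 0.05. Scaling sets how the calls of the whole table split. At light 200 against light 50, 58 genes were higher and 64 lower, and with TMM factors 59 and 48. In the first doubling of light these counts were 52 and 50, and with TMM 58 and 13, and in the second 26 and 48, and with RLE factors 45 and 17. Because whole leaves were sequenced, fewer cells of a type and less RNA per cell cannot be told apart.

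The xylosidase transcript fell with light. It had 386.8, 300.5 and 267.6 CPM at light 50. At light 100 it had 222.6, 226.0 and 183.5 CPM. The light 200 libraries had 92.0, 118.8 and 82.1 CPM. No library of one group overlapped with another group, a separation that 52.0% of the genes showed downward at light 200 against light 50, 43.1% at light 100 against light 50 and 41.5% at light 200 against light 100. On the log2 scale the larger drop lay between light 100 and light 200. The difference between the doublings was not called (edgeR adjusted p = 0.509). The transcript averaged 97.6 ± 19.0 CPM at light 200 and 318.3 ± 61.6 CPM at light 50 (SD, n = 3 each), a 3.26-fold fall and a log2 change of -1.70 ± 0.19 (SE; edgeR adjusted p = 5.06e-06). Of all genes of the table, 52.0% were called lower in this comparison, and this gene had the 15th lowest log2 change of the 123. The second doubling, light 200 against light 100, gave a log2 change of -1.11 ± 0.19 (SE; edgeR adjusted p = 0.00105), the 5th lowest of the table, where 39.0% of genes were called lower. The first doubling, light 100 against light 50, gave -0.60 ± 0.19 (SE; edgeR adjusted p = 0.0132), against 40.7% of genes called lower. That call was lost with TMM factors (adjusted p = 0.113). Leaving out light 50 replicate 1 also ended it (adjusted p = 0.0564), as did leaving out light 100 replicate 3 (adjusted p = 0.0536).

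The glucosidase transcript rose, mostly between light 50 and light 100, though the difference between the doublings was not called (edgeR adjusted p = 0.359). It had 61.6, 57.1 and 46.0 CPM at light 50. The light 100 libraries had 95.4, 82.0 and 76.8 CPM and the light 200 libraries 90.5, 96.7 and 86.4 CPM. All 6 libraries at the higher intensities lay above all 3 at light 50, while those of light 100 and light 200 overlapped. Upward separation was shown by 39.8% of the genes at light 100 against light 50, 29.3% at light 200 against light 100 and 47.2% over the whole range. The glucosidase averaged 91.2 ± 5.20 CPM at light 200 and 54.9 ± 8.0 CPM at light 50 (SD, n = 3 each), a 1.66-fold rise and a log2 change of 0.73 ± 0.15 (SE; edgeR adjusted p = 0.000556). The share of genes called higher was 47.2%, and among the 59 genes with a positive change the median log2 change was 1.25, above that of the glucosidase. The first doubling gave a log2 change of 0.63 ± 0.15 (SE; edgeR adjusted p = 0.00426), where 42.3% of genes were called higher. The second gave 0.11 ± 0.15 (SE; edgeR adjusted p = 0.552), with a 95% interval of -0.23 to 0.44, where 21.1% of genes were called higher. Scaling mattered for this gene. With libraries scaled to an equal median level of all genes, the change at light 200 against light 50 was 0.22 (adjusted p = 0.255) and that of the first doubling 0.36 (adjusted p = 0.0828), so neither was called.

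A further gene of the table carries the same product name, Nitab4.5_0001505g0020 (Nt08, minus strand, 57413243 to 57418070, 599 codons), and it is set beside the glucosidase since reads that fit copies of a gene equally well may be counted for the wrong one. It was singled out after its values had been seen. Whether shared reads affect the xylosidase or the tubulin, which have no namesake in this table, was not tested. Nor was it tested whether the glucosidase and its namesake are copies of each other. Per length the libraries of the 2 genes overlapped at light 50, with 26.7 ± 3.32 FPKM for the glucosidase and 25.5 ± 0.593 FPKM for its namesake (SD, n = 3 each). At light 200 the glucosidase stood at 49.4 ± 1.91 FPKM and its namesake at 74.1 ± 4.88 FPKM. The namesake rose in both doublings, by log2 changes of 0.91 ± 0.14 and 0.48 ± 0.14 (SE; edgeR adjusted p = 0.000203 and 0.016). The ratio of the glucosidase to its namesake lay between 0.924 and 1.12 at light 50, between 0.813 and 0.892 at light 100 and between 0.626 and 0.706 at light 200. The groups did not overlap, and the log2 ratio changed by -0.32 per doubling of light (exact permutation test over all assignments of the libraries to groups, two-sided, p = 0.00119, the smallest p this design can give).

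The tubulin transcript fell over the whole range by a log2 change close to that of the xylosidase. The larger drop was in the first doubling, though the difference between the doublings was not called (edgeR adjusted p = 0.372). It had 126.7, 113.0 and 79.1 CPM at light 50. The light 100 libraries had 47.5, 41.6 and 51.8 CPM, and those of light 200 had 30.8, 38.2 and 28.6 CPM. No groups overlapped, and the lowest library at light 50 was well above the highest at light 100. Such downward separation was shown by 43.1% of all genes at light 100 against light 50, 41.5% at light 200 against light 100 and 52.0% at light 200 against light 50. The first doubling gave a log2 change of -1.18 ± 0.19 (SE; edgeR adjusted p = 0.000276), the 5th lowest of the table, where 40.7% of genes were called lower. The second gave -0.53 ± 0.19 (SE; edgeR adjusted p = 0.0312), the 29th lowest, where 39.0% were called lower. This smaller step was not called with TMM (adjusted p = 0.0645) or RLE factors (adjusted p = 0.153), nor without light 100 replicate 1 or 3 or light 200 replicate 1 or 3 (adjusted p from 0.0634 to 0.108). At light 200 the gene averaged 32.5 ± 5.02 CPM and at light 50 106.3 ± 24.5 CPM (SD, n = 3 each), a log2 change of -1.71 ± 0.19 (SE; edgeR adjusted p = 5.53e-06), in a comparison where 52.0% of genes were called lower.

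**Figure D1:**
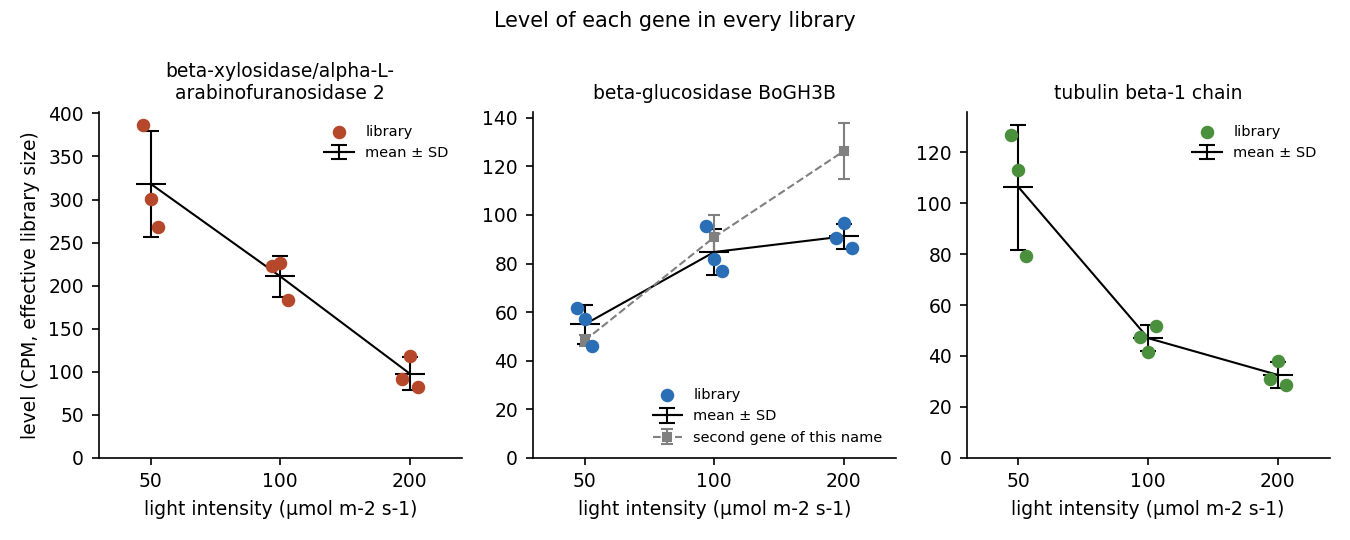
Level (CPM on effective library sizes, linear axis from 0) of the 3 genes in each of 9 libraries against light intensity (µmol m-2 s-1). Points are libraries, black bars the mean ± SD of 3, and grey squares the mean ± SD of the second gene named BoGH3B. The xylosidase and the tubulin fall across the intensities, and the glucosidase levels at light 100 and light 200 overlap.

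In CPM on the authors' size factors, replicates deviated alike in the 3 genes at some intensities. The scaling of a library moves all its genes together, so this order depends on the scaling. At light 50, replicate 1 was the highest and replicate 3 the lowest library for every one of them, and at light 200 replicate 2 was the highest and replicate 3 the lowest. In FPKM the glucosidase at light 200 was instead lowest in replicate 1, at 48.27 against 48.38 in replicate 3. At light 100 they followed no shared order. The within-group coefficient of variation was 11.2%, 11.3% and 10.9% at light 100 for the xylosidase, the glucosidase and the tubulin, close to the table's median of 11.4%. At light 50 the tubulin varied most, by 23.1% against a table median of 15.9%, and at light 200 the glucosidase varied least, by 5.70% against 13.0%.

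Compared per listed coding length, the order of the 3 genes changed with light. At light 50 the xylosidase had 124.7 ± 20.1 FPKM, the tubulin 98.1 ± 20.5 FPKM and the glucosidase 26.7 ± 3.32 FPKM (SD, n = 3 each). The ranges of the xylosidase and the tubulin overlapped there, though within every library the xylosidase was the higher, and the glucosidase was below both. At light 100 the xylosidase stood alone at 86.8 ± 9.93 FPKM, while the tubulin at 45.6 ± 5.11 FPKM and the glucosidase at 43.4 ± 5.34 FPKM overlapped. At light 200 the glucosidase had 49.4 ± 1.91 FPKM, the xylosidase 42.6 ± 7.5 FPKM and the tubulin 33.4 ± 4.58 FPKM. The range of the xylosidase overlapped with the glucosidase and, by its lowest library, with the tubulin. Within every light 200 library, however, the glucosidase was the highest and the tubulin the lowest. The table's median gene had 62.6, 70.4 and 88.2 FPKM at the 3 intensities, so the xylosidase was above it at light 50 and light 100, the tubulin at light 50, and all 3 genes were below it at light 200.

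Ratios between the genes within a library do not depend on how that library is scaled, and they show how far the genes parted. The xylosidase had 4.24 to 5.06 times the FPKM of the glucosidase at light 50, 1.88 to 2.22 times at light 100 and 0.766 to 0.99 times at light 200. The log2 ratio changed by -1.22 per doubling of light (exact permutation test, two-sided, p = 0.00119, adjusted p = 0.00179 over the 3 pairs). For the tubulin over the glucosidase the ratios were 3.26 to 3.90, 0.945 to 1.28 and 0.628 to 0.750 at the 3 intensities, with the same change of -1.22 per doubling and the same exact p. In both pairs the libraries of the 3 groups were fully separated, and the exact p is the smallest this design can give. Each of these ratios sets a gene that fell against one that rose, in a table of genes nearly all marked as changed in these samples. A trend in them is therefore no independent evidence that light changed these genes.

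The xylosidase and the tubulin, which fell by nearly equal amounts, showed no detectable trend in their ratio, which changed by -0.00707 on the log2 scale per doubling (exact permutation test, two-sided, p = 0.971). The ratio was 1.30, 1.13 and 1.44 at light 50, 1.99, 2.30 and 1.5 at light 100 and then 1.27, 1.32 and 1.22 at light 200. Every library at light 100 was above all 6 others. An exact permutation test for any difference among the 3 groups, chosen after these values had been seen, gave adjusted p = 0.0321 over the 3 pairs. It was above 0.05 without light 50 replicate 1 or 3 or any 1 of the light 200 replicates (exact permutation p from 0.0571 to 0.0679).

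**Figure D2:**
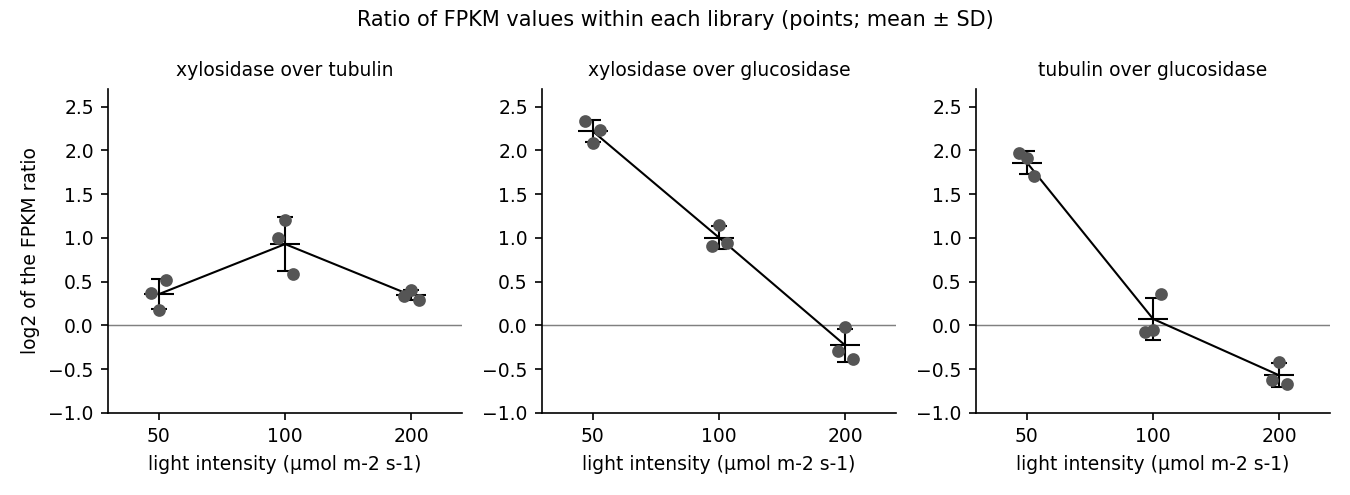
Log2 of the FPKM ratio of each pair of genes within each library against light intensity (µmol m-2 s-1), with points for 9 libraries and bars for the mean ± SD of 3. The ratios to the glucosidase drop at each step, and the ratio of the xylosidase to the tubulin is highest at light 100.

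Over all 3 intensities the slope of the log2 level per doubling of light was -0.85 ± 0.11 for the xylosidase, -0.86 ± 0.11 for the tubulin and 0.37 ± 0.09 for the glucosidase (SE; edgeR adjusted p = 2.02e-05, 1.96e-05 and 0.00186), where 52.0% of genes had a downward and 47.2% an upward trend. The first doubling held 34.9% of the log2 change of the xylosidase, 68.9% of that of the tubulin and 85.6% of that of the glucosidase. Subtracting the log2 change of the first doubling from that of the second gives the step difference, which was -0.51 for the xylosidase (95% interval -1.21 to 0.18, edgeR adjusted p = 0.509). It was -0.52 for the glucosidase (-1.09 to 0.05, edgeR adjusted p = 0.359) and 0.65 for the tubulin (-0.08 to 1.37, edgeR adjusted p = 0.372). None of the 3 was called, where 2.44% of the table's genes were, and the intervals leave room for steps of equal size as well as for differences of over 1 log2 unit in the glycosidases and the tubulin. The step difference of the tubulin was the 5th highest of the 123, where the median was -0.17.

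**Figure D3:**
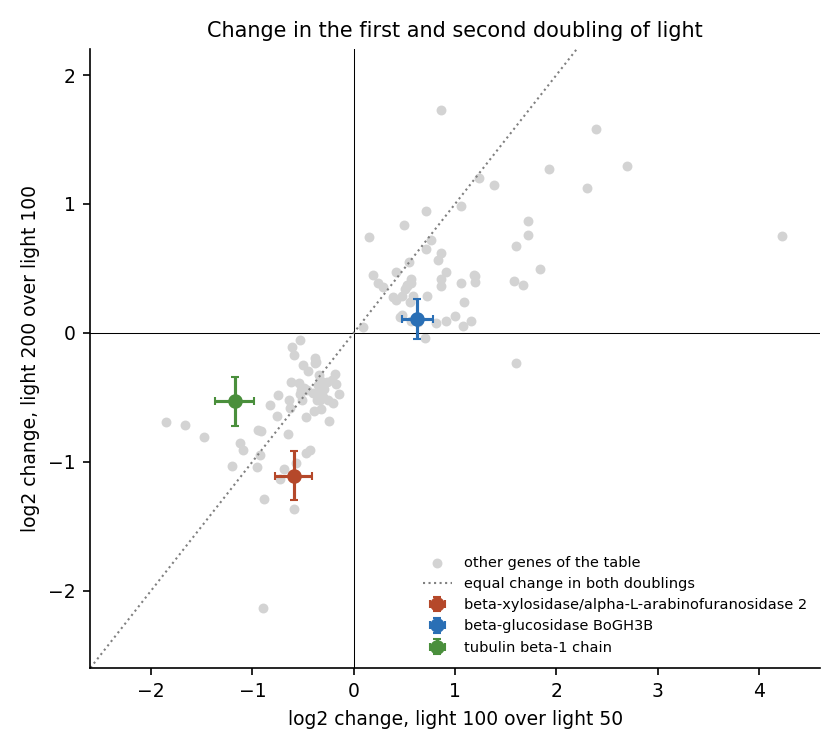
Log2 change in the first doubling of light (light 100 over light 50, horizontal) and in the second (light 200 over light 100, vertical) for all 123 genes, with bars of 1 SE on the 3 genes described. The tubulin lies above the dotted line of equal change, and the xylosidase and the glucosidase lie below it.

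The authors' deposited table gives values close to these with an adjustment of its own, as log2 values of the lower over the higher intensity. For the xylosidase, the authors' deposited table has 1.71 for light 50 over light 200 (their adjusted p = 4.96e-08), 1.11 for light 100 over light 200 (5.08e-08) and 0.59 for light 50 over light 100 (0.177), and the last is not marked. For the tubulin, the authors' deposited table has 1.71, 0.53 and 1.18, and the change between light 100 and light 200 is not marked (their adjusted p = 0.0549). For the glucosidase, the authors' deposited table has -0.73, -0.11 and -0.63, and the change between light 100 and light 200 is not marked. Of all 123 genes, it marks 35.8% between light 50 and light 100 and 31.7% between light 100 and light 200.

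Few other genes of these families are in the table. The cell wall list, matched by product name, held 3 genes, and at light 200 against light 50, 1 was higher and 2 were lower. Its median log2 change of -1.70 is the value of the xylosidase itself and so says nothing of other wall genes. The median over all genes was -0.58. Over all genes 47.2% were called higher and 52.0% lower. In the first doubling 0 of the 3 were higher and 2 lower, where 42.3% of all genes were higher and 40.7% lower. In the second 1 was higher and 2 were lower, where 21.1% of all genes were higher and 39.0% lower. Besides the xylosidase, these were a polygalacturonase inhibitor (Nitab4.5_0005395g0010), a protein that blocks pectin-degrading enzymes, and a glucan endo-1,3-beta-glucosidase (Nitab4.5_0001170g0190), an enzyme that cuts callose-type glucans. The inhibitor fell to 4.38 ± 1.20 CPM at light 200, against 17.5 ± 4.75 CPM at light 50 (SD, n = 3 each; log2 change -1.99, edgeR adjusted p = 2.74e-05), and fell in each doubling. The endo-glucosidase rose to 76.7 ± 0.690 CPM at light 200, against 49.3 ± 4.99 CPM at light 50 (log2 change 0.64, edgeR adjusted p = 0.000978).

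The glycoside hydrolase list held 6 genes, of which 5 were higher at light 200 than at light 50 and 1, the xylosidase, was lower, where 47.2% of all genes were higher and 52.0% lower. Their median log2 change was 0.76, against -0.58 over all genes. The table's genes split into 64 with a negative change (median -0.95) and 59 with a positive one (median 1.25). Of the 6 genes of the list, 2 are among the 3 described here, so its median is no separate result on the family. Alongside the glucosidase, its namesake and the endo-glucosidase, the list held alpha-glucosidase 2 (Nitab4.5_0000030g0360), an enzyme that frees glucose from alpha-linked sugars, and SFR2 (Nitab4.5_0003135g0010), which is named as a beta-glucosidase but in Arabidopsis remodels galactolipids of the chloroplast envelope. SFR2 rose to 240.1 ± 12.6 CPM at light 200, against 120.2 ± 12 CPM at light 50, with log2 changes of 0.91 in the first doubling (edgeR adjusted p = 0.00015) and 0.09 in the second (edgeR adjusted p = 0.565). In the first doubling 4 of the 6 genes were higher and 1 was lower, against 42.3% and 40.7% of all genes. In the second 2 were higher and 1 was lower, against 21.1% and 39.0% of all genes. The list of cytoskeleton and cell division genes held the tubulin alone, so whether other tubulins or cell cycle genes moved with it is not analysed here. The search for markers of other tissues matched 1 gene, by its name alone, berberine bridge enzyme-like 8 (Nitab4.5_0000009g0310). It had 5.58 ± 1.78 CPM at light 200 and a low 0.941 ± 0.359 CPM at light 50 (SD, n = 3 each; log2 change 2.59, edgeR adjusted p = 5.09e-05).

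The search words missed a pair of genes linked to the epidermis, which were added after their values had been seen. Both fell, as the xylosidase and the tubulin did. Lower calls were made for 52.0% of all genes at light 200 against light 50. This share was 40.7% at light 100 against light 50 and 39.0% at light 200 against light 100. Epidermis-specific secreted glycoprotein EP1 (Nitab4.5_0000246g0290) had 3.53 ± 0.442 CPM at light 200 and 9.33 ± 2.35 CPM at light 50 (SD, n = 3 each), a log2 change of -1.41 ± 0.27 (SE; edgeR adjusted p = 0.000292). Its first doubling gave -0.76 ± 0.26 (SE; edgeR adjusted p = 0.0199) and its second -0.65 ± 0.27 (SE; edgeR adjusted p = 0.0548), which was not called. A non-specific lipid-transfer protein (Nitab4.5_0000125g0030), of a family often found in the leaf epidermis, had 15.9 ± 2.14 CPM at light 200 and 51.8 ± 12.9 CPM at light 50 (SD, n = 3 each), a log2 change of -1.70 ± 0.20 (SE; edgeR adjusted p = 7.11e-06). It fell in each doubling, by log2 changes of -0.94 and -0.76 (edgeR adjusted p = 0.00161 and 0.00892). The part of these 3 marker genes in the results on the xylosidase, the glucosidase and the tubulin was not tested.

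Genes of nearest pattern were found by the distance between pairs of log2 changes, one for each doubling, over the 3 groups and 114 candidate genes with a product name. Nearest to the xylosidase were strigolactone esterase D14, the receptor of the branching hormone strigolactone (distance 0.103), a mitochondrial L-3-cyanoalanine synthase/cysteine synthase 2 (0.109) and chlorophyll a-b binding protein P4, of the light-harvesting antenna (0.136). The median distance of the candidates from the xylosidase was 1.33. Nearest to the glucosidase were a sulfate transporter (Nitab4.5_0000678g0050, 0.0254), glutamine synthetase (0.0586) and alpha-glucosidase 2 (0.151). The SE of each of these log2 changes was near 0.19 for the xylosidase and 0.15 for the glucosidase, so the order of their neighbours is not settled. For the tubulin, with an SE near 0.19, the distances were larger, but whether by more than the error was not tested. Its closest were the non-specific lipid-transfer protein (0.324), a protochlorophyllide reductase, which makes a chlorophyll precursor in the light (Nitab4.5_0001320g0160, 0.331), and nicotinamidase 2 (0.354).

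Under every scaling tried, the xylosidase and the tubulin were lower at light 200 than at light 50 and were called. Their log2 changes were -1.28 and -1.28 with TMM factors, which move the median change of all genes by 0.43, and -2.22 and -2.23 with median centring, which moves it by -0.50. The glucosidase had positive changes in that comparison under all of these scalings, between 0.22 and 1.16, and was called under all but median centring.

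**Figure D4:**
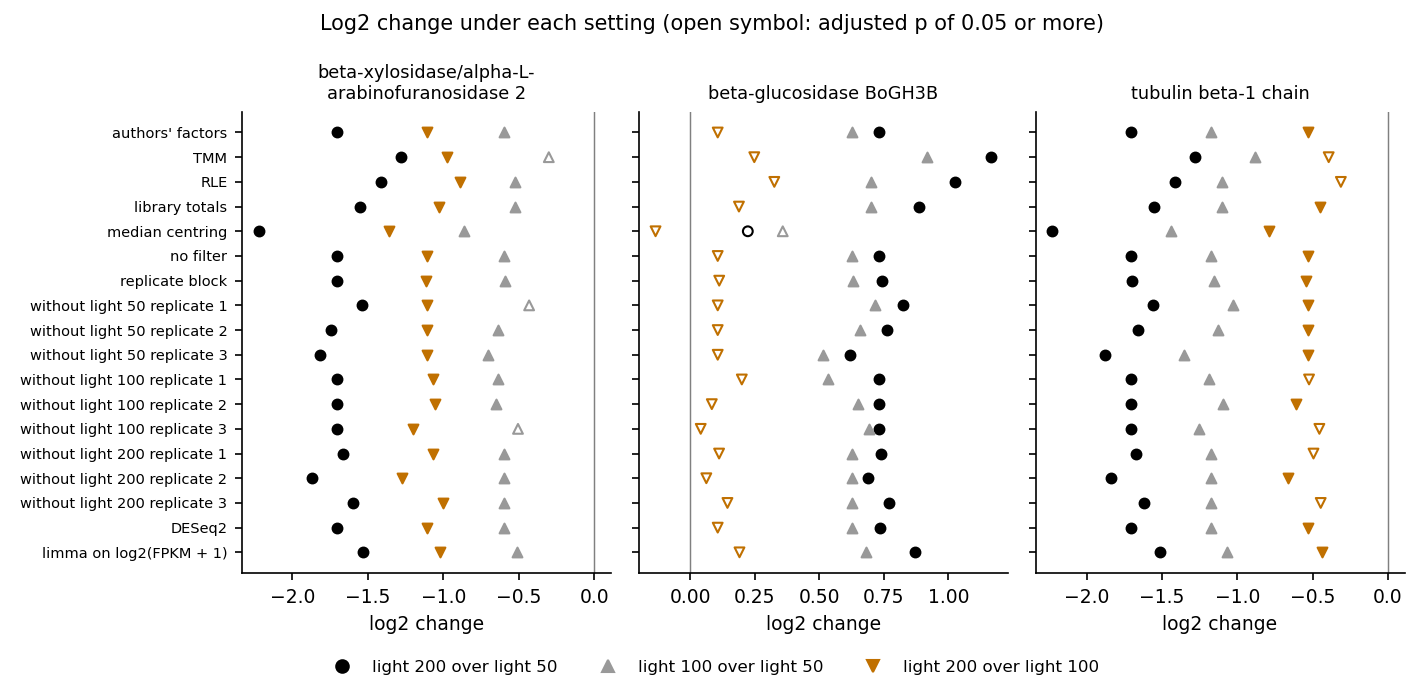
Log2 change of the 3 genes (horizontal, a scale for each panel) under each scaling, test and left-out library (vertical). Filled symbols have an adjusted p under 0.05 and open symbols do not. The changes of the xylosidase and the tubulin stay below 0, and that of the glucosidase between light 200 and light 100 lies near 0, on the negative side with median centring.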

How the data were processed

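Per the labels' protocols, 9 leaf RNA libraries were made with NEBNext Ultra RNA reagents, which do not mark strand. HISAT, HTSeq and CASAVA 1.7 are listed in the submitters' processing notes with no role, and no genome build is named. The table holds raw read counts per gene as deposited. It also holds the authors' FPKM values, on lengths that are all multiples of 3 and so are coding lengths. The authors' mean normalised counts per group and comparison, their log2 fold changes and their p-values were deposited too. The reference gene table matched 0 of the identifiers, so no sequence is shown.

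Size factors were recovered from the authors' mean normalised counts (largest relative error 4.98e-10) and combined over the comparisons (largest difference 0.188%). Counts were fitted with edgeR 4.0.16 in R 4.3.3 (glmQLFit, glmQLFTest) on the 9 libraries together, with light group as the single factor. The filter (filterByExpr) kept all 123 genes. Standard errors are the log2 change divided by the square root of F. Ratios were tested by exact permutation over all assignments of libraries to groups. The edgeR step was tested on simulated data with known changes. The alternatives were TMM, RLE, library totals, median centring, DESeq2 1.42.0, limma 3.58.1 on log2(FPKM + 1), no filter, a replicate block and each library left out. Libraries of a group differed by more than counting noise (chi-square over its degrees of freedom between 23.6 and 102.4). Only 4 of 9 same-numbered pairs of libraries had deviations correlated above 0.1, so the numbers were not taken as pairs.

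The members and lists were chosen with earlier results of these data known. Named are the 3 members, the 3 genes of nearest pattern to each, and genes of the lists matched by product name. The search for markers of other tissues used "lipid transfer" without a hyphen and no word for epidermis, so it took neither the lipid-transfer protein nor epidermis-specific glycoprotein EP1, and both were added after seeing the data.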

Additional observations from a re-analysis of the deposited data

How the results depend on the processing

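With TMM factors the first-doubling change of the xylosidase was -0.30 and the second-doubling change of the tubulin -0.39, and with RLE factors the tubulin change was -0.31, each no longer called. With median centring the changes of the glucosidase were 0.22 (light 200 against light 50), 0.36 (light 100 against light 50) and 0.11 (trend), no longer called, and -0.14 for light 200 against light 100, with the sign turned and no call in either fit. With 1 library left out, the first-doubling change of the xylosidase lay between -0.71 and -0.43, the second-doubling change of the tubulin between -0.66 and -0.45, and the slope of the log2 ratio of the xylosidase to the tubulin between -0.0936 and 0.0505, with the sign turned without any 1 of the light 200 replicates. On light 200 and light 50 alone the ratios to the glucosidase had the slopes -1.22 and -1.22 with adjusted p = 0.15, where 3 against 3 libraries cannot give an exact permutation p below 0.10. The test for any difference called the ratio of the xylosidase to the tubulin, whose slope is -0.00707. The replicate block changed no call of the 3 genes, and the tubulin had a log2 change of -1.70 for light 200 against light 50 with it. The cause of these changes was not tested.

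Over the whole table, the first doubling had 52 genes higher, and 32 with median centring, and 50 lower, and 13 with TMM. The second had 26 higher, and 43 with TMM, 45 with RLE, 42 with library totals, 14 with median centring and 42 with limma, and 48 lower, and 17 with RLE. The upward trend had 58 genes, and 38 with median centring. The step difference had 3, and 23 with TMM, 5 with library totals, 6 with the replicate block, 9 with DESeq2 and 5 with limma. With 1 library left out these counts lay between 29 and 55 (lower, first doubling), 13 and 30 (higher, second), 27 and 50 (lower, second) and 1 and 14 (step difference).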
